A study of Mus musculus with 18 samples.

Results

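The transcripts described here are those of the 4 D-box binding factors Dbp, Tef, Hlf and Nfil3 in mouse fibroblasts whose clocks had been set with dexamethasone. They were taken as the probe sets that the platform annotation gives to exactly 1 of these symbols, which found 1 probe set for each, so 4 of the 19938 genes measured. The probe sets were 10553092 for Dbp, 10425601 for Tef, 10389786 for Hlf and 10409278 for Nfil3, and 0 of them were shared with another gene. The cells were wild type embryonic fibroblasts of the C57BL/6 background, grown from embryos of embryonic day 13 without head and liver and established from 2 mice, and they were wild type siblings from a Bmal1 mating. Every culture received 100 nM dexamethasone for 2 h, a step the labels also call a serum shock, and there was no untreated group. Total RNA was taken at 22, 26, 30, 34, 40 and 46 h after it, with 3 biological replicates at each time and 1 Affymetrix array per sample, giving 18 arrays. The labels do not say which of the 2 mice a sample came from. The design text gives the purpose as following gene expression through a circadian cycle of 24 h, so each phase was sampled at most once apart from the first and last time.

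Dbp, Tef and Hlf form the PAR bZIP family, whose name stands for a proline and acidic amino acid rich stretch beside a basic leucine zipper. They bind the D-box, a short DNA element in the promoters of clock genes and of detoxification and metabolic genes, and activate from it. Nfil3, also called E4BP4, is a basic leucine zipper repressor of the same element and lacks the PAR stretch. In the textbook clock, CLOCK and BMAL1 (the product of Arntl) drive Dbp through E-boxes, while REV-ERB alpha (the product of Nr1d1) and the ROR receptors act on Nfil3 through ROR elements.

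Because Dbp and Tef moved together and Nfil3 mirrored Nr1d1 in the values below, their RefSeq promoter windows are shown, 300 bases around an annotated start in build GRCm38.p6. All 4 genes had a window in the table, and Tef had 2. The windows were searched on both strands for the E-box CACGTG and its variant CACGTT, the D-box forms TTATGTAA and TTACGTAA, and the ROR elements TAGGTCA and TGGGTCA. Capitals mark the matches, and none of the matches overlapped another.
Dbp, chr7:45704997-45705296, plus strand: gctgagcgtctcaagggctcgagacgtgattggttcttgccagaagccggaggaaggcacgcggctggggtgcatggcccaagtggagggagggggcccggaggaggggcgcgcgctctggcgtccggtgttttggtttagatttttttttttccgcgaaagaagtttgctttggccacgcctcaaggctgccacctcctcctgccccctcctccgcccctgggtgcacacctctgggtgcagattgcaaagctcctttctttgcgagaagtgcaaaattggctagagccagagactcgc
Tef, window 1, chr15:81802423-81802722, plus strand: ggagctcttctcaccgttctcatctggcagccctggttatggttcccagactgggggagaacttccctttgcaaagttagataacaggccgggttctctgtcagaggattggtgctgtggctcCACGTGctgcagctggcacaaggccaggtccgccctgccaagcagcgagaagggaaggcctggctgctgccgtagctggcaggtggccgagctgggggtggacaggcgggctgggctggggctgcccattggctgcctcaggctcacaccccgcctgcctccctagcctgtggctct
Tef, window 2, chr15:81811164-81811463, plus strand: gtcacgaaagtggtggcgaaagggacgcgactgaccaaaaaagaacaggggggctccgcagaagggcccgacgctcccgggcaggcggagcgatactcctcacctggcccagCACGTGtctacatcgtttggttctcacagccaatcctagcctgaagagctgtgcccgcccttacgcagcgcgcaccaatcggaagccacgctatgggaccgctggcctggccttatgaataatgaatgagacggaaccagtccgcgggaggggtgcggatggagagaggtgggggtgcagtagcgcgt
Nfil3, chr13:52980990-52981289, minus strand: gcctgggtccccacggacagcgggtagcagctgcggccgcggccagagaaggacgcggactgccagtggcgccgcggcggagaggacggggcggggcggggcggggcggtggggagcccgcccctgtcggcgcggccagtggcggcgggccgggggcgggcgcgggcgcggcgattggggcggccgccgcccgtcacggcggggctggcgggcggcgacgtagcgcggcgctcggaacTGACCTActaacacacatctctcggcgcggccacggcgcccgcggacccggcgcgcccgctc
Both Tef windows held a CACGTG, 127 bases before the start in the first and 138 before it in the second. The Nfil3 window held TAGGTCA on its minus strand, read above as TGACCTA, 12 bases before the start. The Dbp and Hlf windows held none of the 6 words, which says only that these letters are not in those windows. Among 32851 windows of the table, 7.15% held CACGTG, 4.68% CACGTT, 0.938% TTATGTAA, 0.119% TTACGTAA, 2.61% TAGGTCA and 3.98% TGGGTCA. A match is a description of the sequence and not a measured binding site.

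Levels are given as log2(intensity + 16) after quantile normalization, a scale that understates the change of dim genes. The median deposited intensity of an array lay between 195.9 and 210.2, precision is limited by how many arrays there are, and arrays of the same time correlated at 0.9943 to 0.998 over all probe sets, with 0 identical columns. Within times, 33.8% of the variance over genes lay along 1 component. All 10 fibroblast markers looked at were measured, with a median level of 12.72 from Thy1 at 7.31 to Fn1 at 13.47. The 21 markers of epithelium, endothelium, blood, neural cells, muscle and liver had a median of 6.92, from Adgre1 at 6.31 to Tubb3 at 8.29, and array files of this kind give no level that stands for 0.

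All 4 genes changed over the 6 times, against a background of 19.8% of all genes (limma's moderated F test, 3957 of 19938, adjusted p below 0.05). Dbp covered the widest range of the 4, 1.33 log2 between its highest and lowest time mean, followed by Tef with 0.74, Hlf with 0.38 and Nfil3 with 0.33. The activators Dbp and Tef were high at 22 h and low at 40 h, and Hlf had its lowest mean at 22 h. The repressor Nfil3 had its highest means from 26 h to 34 h and lower means at both ends. Its rise from 22 h to 26 h passed, and no later step of Nfil3 did. In RNA from whole cultures, fewer cells that make a transcript and less of it per cell cannot be told apart.

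**Figure D1:**
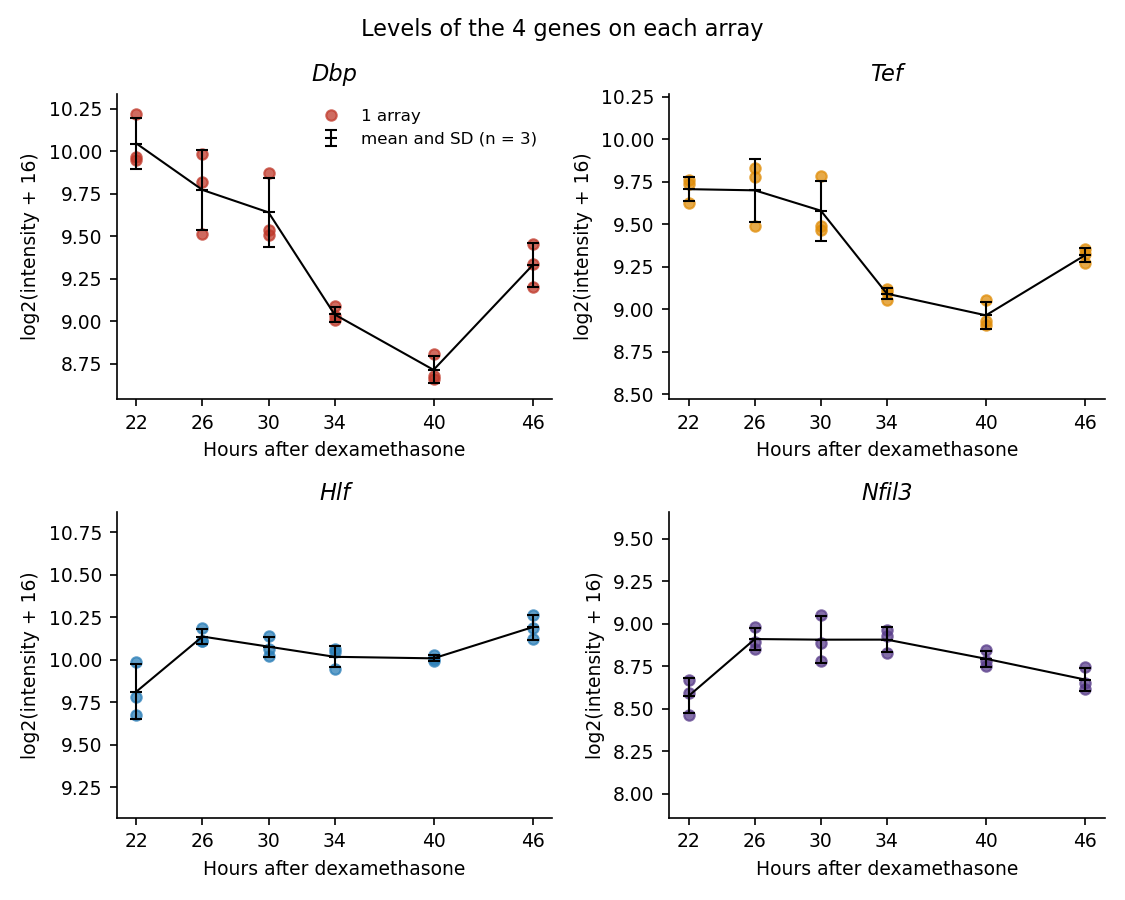
Levels of Dbp, Tef, Hlf and Nfil3, as log2(intensity + 16) on the vertical axes, against hours after dexamethasone; points are single arrays, bars the mean and SD of 3 arrays, and every panel spans the same height. Dbp ran from 10.04 at 22 h to 8.71 at 40 h and Tef from 9.71 to 8.96, while Hlf and Nfil3 stayed within 0.38 and 0.33 log2.

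Dbp, the PAR factor known for large daily swings in liver, read 9.95, 10.22 and 9.97 on the 3 arrays of 22 h, 9.82, 9.51 and 9.98 on those of 26 h, and 9.54, 9.51 and 9.87 on those of 30 h. At 34 h it read 9.09, 9.03 and 9.004, at 40 h 8.80, 8.66 and 8.68, and at 46 h 9.33, 9.46 and 9.20. The 40 h arrays were the lowest of all 18, and each of the 22, 26 and 30 h arrays lay above each of the 34, 40 and 46 h arrays. These groups of times were seen in the values, and how many of all genes separate the times so was not counted. Statements on arrays that overlap or lie apart, here and below, only describe the gene named. As deposited, the intensity of Dbp ran from 377 on an array of 40 h to 1178 on an array of 22 h.

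The time means of Dbp from the first time to the last were 10.04 ± 0.15 (SD, n = 3), 9.77 ± 0.24, 9.64 ± 0.20, 9.04 ± 0.04, 8.71 ± 0.08 and 9.33 ± 0.13. From highest to lowest the order was 22, 26, 30, 46, 34 and 40 h. Arrays of 22 h overlapped with those of 26 h and those of 26 h with 30 h, and the later neighbours did not overlap. The level at 40 h was 2.52-fold below that at 22 h, and the F test over the times gave an adjusted p of 1.53e-06 (limma).

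Tef, the family member first described in the pituitary as thyrotroph embryonic factor, read 9.63, 9.73 and 9.76 on the arrays of 22 h, 9.78, 9.49 and 9.83 on those of 26 h, and 9.49, 9.46 and 9.78 on those of 30 h. At 34 h it read 9.06, 9.10 and 9.12, at 40 h 9.05, 8.93 and 8.91, and at 46 h 9.35, 9.32 and 9.27. Its 22, 26 and 30 h arrays again all lay above those of the later times. Means were 9.71 ± 0.07 (SD, n = 3), 9.70 ± 0.18, 9.58 ± 0.18, 9.09 ± 0.03, 8.96 ± 0.08 and 9.32 ± 0.04 from the first time to the last.

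The order of the times for Tef was that of Dbp, and the same neighbours overlapped. Its range was narrower, with 40 h 1.67-fold below 22 h (adjusted p = 1.42e-05, limma's F test). At 26 h Tef differed from 22 h by -0.01, with a 95% interval from -0.19 to 0.18, where Dbp had a difference of -0.27 (-0.51 to -0.04).

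Hlf, hepatic leukemia factor, read 9.67, 9.99 and 9.78 on the arrays of 22 h, 10.11, 10.11 and 10.19 on those of 26 h, and 10.02, 10.06 and 10.14 on those of 30 h. At 34 h it read 10.06, 9.94 and 10.04, at 40 h 10.00, 9.99 and 10.03, and at 46 h 10.19, 10.26 and 10.12. The 22 h arrays were low and spread widely, and from 26 h on the time means stayed between 10.01 and 10.19. Means were 9.81 ± 0.16 (SD, n = 3), 10.14 ± 0.04, 10.08 ± 0.06, 10.02 ± 0.06, 10.01 ± 0.02 and 10.19 ± 0.07 from the first time to the last.

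In the order 46, 26, 30, 34, 40 and 22 h, each time overlapped with the next except 40 h with 22 h. Still, 22 h overlapped with 34 h, since replicate 2 of 22 h read 9.99 and replicate 2 of 34 h read 9.94. The highest mean of Hlf was 1.30-fold above its lowest (limma's F test, adjusted p = 0.00748). Without replicate 1 of 22 h the range was 0.31 log2, and without replicate 2 of 22 h, the array that read 9.99, it was 0.47. The F test passed in each of the 18 fits that left out 1 array, with a highest adjusted p of 0.0400.

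Nfil3, the D-box repressor, read 8.67, 8.46 and 8.59 on the arrays of 22 h, 8.98, 8.89 and 8.85 on those of 26 h, and 8.89, 9.05 and 8.78 on those of 30 h. At 34 h it read 8.82, 8.96 and 8.93, at 40 h 8.78, 8.84 and 8.75, and at 46 h 8.65, 8.75 and 8.62. All arrays of 22 h and 46 h lay below all arrays from 26 h to 40 h. Means were 8.58 ± 0.10 (SD, n = 3), 8.91 ± 0.07, 8.91 ± 0.14, 8.91 ± 0.07, 8.79 ± 0.05 and 8.67 ± 0.07 from the first time to the last.

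For Nfil3 the order was 26, 34, 30, 40, 46 and 22 h, and the arrays of neighbours overlapped except those of 40 h and 46 h. Its highest mean was 1.26-fold above its lowest (adjusted p = 0.00600, limma's F test). Its deposited intensities ran from 339 to 515.

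The 24 h cosine tested whether a wave of that period took up part of the spread over the arrays. It passed for 2 of the 4 genes, Dbp and Tef, against 0.828% of all genes (165 of 19938). Whether the wave described a whole course was not tested. Such a wave has the same value at 22 h and 46 h, but from 22 h to 46 h Dbp changed by -0.72 and Tef by -0.39. The amplitude is how far, in log2 units, the wave rises above its middle. The wave of Dbp had an amplitude of 0.60 ± 0.09 (SE, n = 18 arrays) and peaked at 25.9 h (adjusted p = 0.0143, limma). That of Tef had 0.41 ± 0.05 and peaked at 26.1 h (adjusted p = 0.00434). The observed maximum of both was the first time sampled, so the fitted peaks come from the shape of the wave and a rise before 22 h was not measured.

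Nfil3, with an amplitude of 0.15 ± 0.03, peaked in the fit at 32.02 h, and did not pass (adjusted p = 0.0665, limma). It passed under 5 other settings, among them a period of 26 h, and without replicate 2 of 40 h (0.0471). Hlf had an amplitude of 0.06 ± 0.05 and an adjusted p of 0.656. With a period of 22 h in place of 24 h the adjusted p was 0.175 for Dbp and 0.113 for Tef. Among differences between members, Dbp minus Nfil3 and Tef minus Nfil3 passed the cosine (adjusted p = 0.0269 and 0.0192), the first lost without replicate 3 of 26 h or replicate 1 or 3 of 40 h (highest adjusted p = 0.0821), the second without replicate 3 of 40 h (0.0577).

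The first and last times lie 24 h apart, and 3 of the 4 genes differed between them. Dbp was lower at 46 h by 0.72 ± 0.11 (SE), a 1.64-fold difference (adjusted p = 0.000178, limma), and Tef was lower by 1.31-fold, with a log2 difference of -0.39 ± 0.09 (adjusted p = 0.00376). The fall of 2 members stands beside 9.73% of all genes called lower. Hlf was higher at 46 h by 0.38 ± 0.07, or 1.30-fold (adjusted p = 0.000583), beside 11.5% of genes called higher. Nfil3 differed by 0.10 ± 0.07 with a 95% interval from -0.05 to 0.24 (adjusted p = 0.370).

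The share of all calls that were higher at 46 h was 54.2% after quantile normalization, 63.9% in the values as deposited and 36.1% with each array centred on its median. The 3 member calls and their directions held under each of these scalings and without any 1 array. Other groups of genes moved between the same times. All 9 measured mitotic genes were lower at 46 h, with a median difference of -1.41 (the median of all genes was 0.03), and their median level fell from 10.95 at 22 h to 9.76 at 46 h. Of the 10 fibroblast markers, 6 were higher at 46 h, with a median difference of 0.35, and of the 21 markers of other cells 2 were higher and 2 lower. Their part in the changes of Dbp, Tef and Hlf was not tested.

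The level at 34 h, 12 h from both ends, was set against the mean of 22 h and 46 h. Dbp was lower by 0.65 ± 0.10 (SE), or 1.57-fold (adjusted p = 0.0133, limma), and Tef had a difference of -0.42 ± 0.08, or 1.34-fold lower (adjusted p = 0.0366). Only 0.0401% of all genes, 8 of 19938, were called lower in this comparison. Nfil3 had a difference of 0.28 ± 0.06 in the other direction, where 0.0953% of genes were called higher, and did not pass (adjusted p = 0.0793). Hlf had a difference of 0.01, with an interval from -0.11 to 0.14.

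These calls rested on few arrays. The call for Dbp was lost without any 1 of the 34 h arrays, with a highest adjusted p of 0.146, and that for Tef in 11 of the 18 fits without 1 array, with a highest adjusted p of 0.164. The differences themselves moved little, from -0.68 to -0.60 for Dbp and from -0.44 to -0.40 for Tef. This comparison shares its 22 h and 46 h arrays with the one above.

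Step by step, Hlf and Nfil3 rose between 22 h and 26 h, Tef fell between 30 h and 34 h, and no other step of a member passed. Hlf was higher at 26 h by 0.32 ± 0.07 (SE), or 1.25-fold (adjusted p = 0.0170, limma), and Nfil3 by 0.33 ± 0.07, or 1.26-fold (adjusted p = 0.0190). These 2 rises stand beside 0.958% of genes called higher. Each was lost when only the arrays of 22 h and 26 h entered the fit, with adjusted p-values of 0.173 and 0.0960. The rise of Hlf was also lost without replicate 1 or 3 of 22 h or replicate 2 or 3 of 26 h (highest adjusted p = 0.129), and that of Nfil3 without replicate 3 of 22 h or replicate 1 or 2 of 26 h (highest adjusted p = 0.0806).

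In the same step 8 of the 9 mitotic genes fell, with a median of -0.58 over the list, and 3 of the 10 fibroblast markers rose. Of all 19938 genes, 245 were called lower and 191 higher. Between 26 h and 30 h none of the 4 members passed, nor did any other gene (0%, 0 of 19938 with limma, while 517 had an unadjusted p below 0.05). The members' differences in that step were -0.13 for Dbp, -0.12 for Tef, -0.06 for Hlf and -0.0035 for Nfil3.

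Between 30 h and 34 h Tef fell by 0.49 on the log2 scale, with an SE of 0.09, or 1.40-fold (adjusted p = 0.0388, limma), beside 0.0752% of genes called lower. Dbp had a larger difference, -0.60 ± 0.11, with an adjusted p of 0.0532, and passed under 6 other settings, among them the values as deposited (0.0347). The call for Tef was lost in 14 of the 18 fits without 1 array, and replicate 3 of 30 h, which was high for both genes, moved the difference of Tef to -0.39 when left out. Hlf and Nfil3 had differences of -0.06 and 0.00 in this step.

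Between 34 h and 40 h 0 of the 4 members passed, beside 0.823% of all genes. Dbp had the largest difference, -0.33 ± 0.11 (unadjusted p = 0.00988, adjusted p = 0.220, limma), and Tef had -0.13 ± 0.09. From 40 h to 46 h again 0 of 4 passed, beside 0.0351% of genes. Dbp had a difference of 0.62 ± 0.11 (adjusted p = 0.0728, below 0.05 under 4 other settings) and Tef of 0.35 ± 0.09 (adjusted p = 0.157). At an unadjusted p below 0.05, Dbp passed in the step to 40 h, beside 2490 of 19938 genes. Dbp, Tef and Hlf passed that threshold in the step to 46 h, beside 1616 of 19938 genes.

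**Figure D2:**
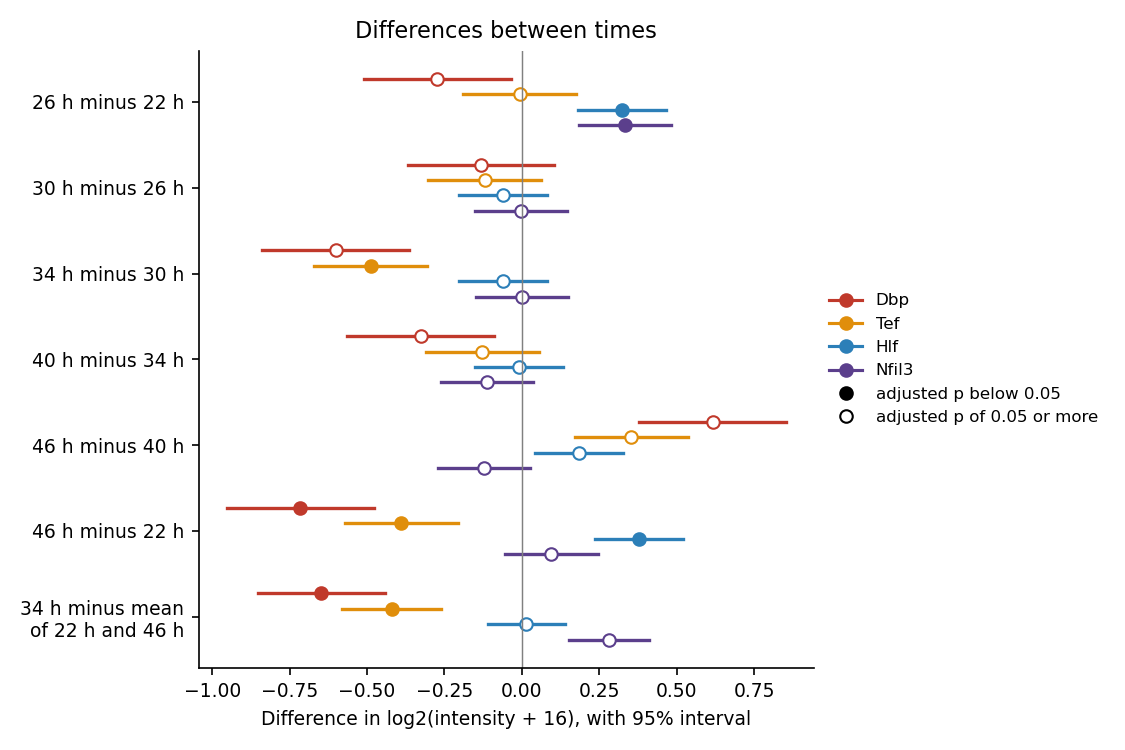
Differences in log2(intensity + 16) between times for the 4 genes, with 95% intervals from the limma fit; filled points have an adjusted p below 0.05. Dbp and Tef are filled on the left of 0 for 46 h against 22 h and for 34 h against both ends, Tef also between 30 h and 34 h; Hlf and Nfil3 are filled on the right of 0 between 22 h and 26 h, and Hlf also for 46 h against 22 h.

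Whether the members followed different courses was tested on the difference between 2 members on the same array, which removes what both share on it. Of the 6 pairs, 5 differed over the times, beside 19.9% of all rows called in that fit (3963 of 19944). Hlf and Nfil3 formed the pair that did not pass (adjusted p = 0.0911, limma's F test), though it did without replicate 2 of 22 h or replicate 3 of 30 h (lowest adjusted p = 0.0147). The 6 differences share genes and are not independent.

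Dbp and Tef, the pair most alike, still parted, with the same order of the times but a narrower range for Tef. The test does not tell a difference in size from a difference in timing. Dbp minus Tef was 0.34 ± 0.14 (SD, n = 3), 0.07 ± 0.07, 0.06 ± 0.03, -0.05 ± 0.07, -0.25 ± 0.02 and 0.01 ± 0.11 at the successive times (adjusted p = 0.000268, limma's F test). Relative to Tef, Dbp was thus lower at 40 h than at 22 h by 1.505-fold. Levels of different probe sets cannot be compared, so only the change of this difference is read here. Whether both probe sets respond equally strongly was not tested. Between 22 h and 46 h the difference moved by -0.33 ± 0.07 (adjusted p = 0.00235), so Dbp was further from its starting level than Tef.

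Dbp and Tef also parted from the repressor. Dbp minus Nfil3 covered 1.55 log2, or 2.93-fold, from 22 h to 40 h (adjusted p = 1.16e-05), and Tef minus Nfil3 covered 0.96, or 1.95-fold (adjusted p = 9.83e-05). At 34 h against both ends they were lower by -0.93 ± 0.13 (SE) and -0.70 ± 0.10, with adjusted p-values of 0.00509 and 0.00823 (limma). Without replicate 2 or 3 of 34 h those 2 calls were lost, with highest adjusted p-values of 0.0705 and 0.0954.

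Hlf parted from both of its relatives, and from Dbp already at 26 h. Dbp minus Hlf covered 1.53 log2 (adjusted p = 2.38e-08, limma's F test) and Tef minus Hlf 0.94 (adjusted p = 2.29e-06). From 22 h to 26 h, Dbp minus Hlf changed by -0.60 ± 0.09 (SE, adjusted p = 0.000856, limma), and Dbp minus Nfil3 by -0.61 ± 0.15 (adjusted p = 0.0392), the latter lost in 10 of the 18 fits without 1 array (highest adjusted p = 0.183). Between 22 h and 46 h, Dbp minus Hlf changed by -1.09 ± 0.09 (SE, adjusted p = 8.39e-08) and Tef minus Hlf by -0.77 ± 0.08 (adjusted p = 4.26e-06).

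**Figure D3:**
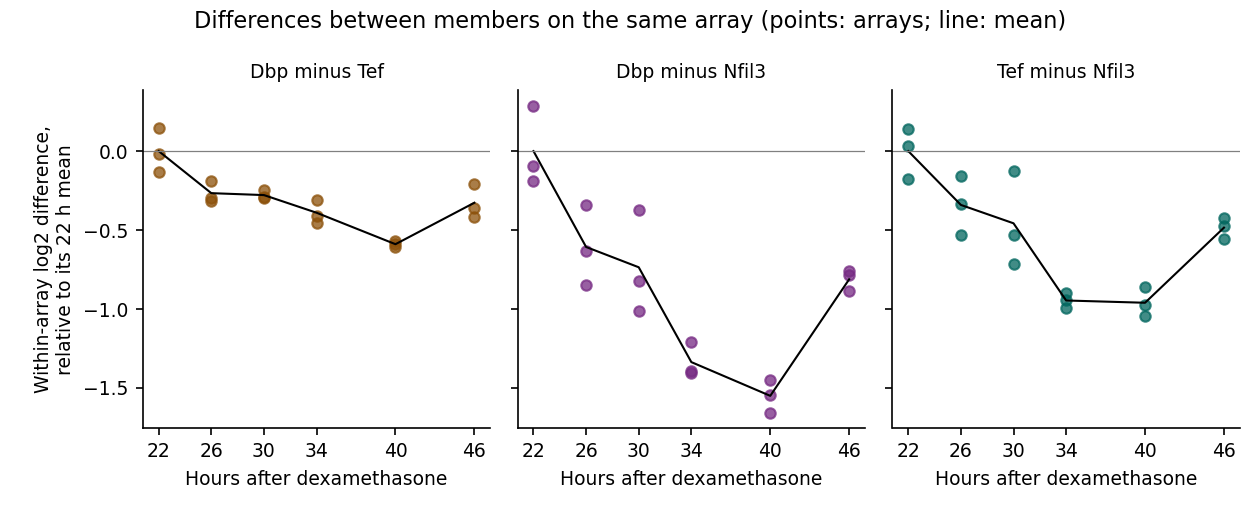
Differences between members on the same array, relative to their mean at 22 h, in log2 units against hours after dexamethasone; points are arrays and the line joins the means of 3. At 40 h the mean lies 0.59 below the 22 h mean for Dbp minus Tef, 1.55 below for Dbp minus Nfil3 and 0.96 below for Tef minus Nfil3.

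Arrays of 1 time also differed from each other in a shared way. Dbp was low on replicate 2 of 26 h, with a deviation of -0.26 from its time mean, and high on replicate 3 of 30 h, with 0.23, and Tef deviated by -0.21 and 0.20 on the same arrays. Over the 18 arrays, deviations of Dbp and Tef from their time means correlated with a Pearson r of 0.85 (exact permutation of arrays within times, two-sided, p = 0.00675, adjusted over 6 pairs 0.0203) and a Spearman rho of 0.82 (p = 0.00924, adjusted 0.0277). Without those 2 arrays r was 0.72.

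Dbp and Hlf also deviated together, although their courses differed, with r = 0.69 (exact permutation p = 0.00201, adjusted 0.0121) and rho = 0.73 (p = 0.00246, adjusted 0.0148). Without the same 2 arrays r was 0.74. The other 4 pairs did not pass, with r from -0.52 for Hlf and Nfil3 to 0.40 for Tef and Hlf and adjusted p-values of 0.151 to 0.332 (exact permutation). The component that held most of the variance within times correlated with the deviations at -0.40 for Dbp, -0.20 for Tef, -0.45 for Hlf and -0.04 for Nfil3, and its part in these correlations was not tested.

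**Figure D4:**
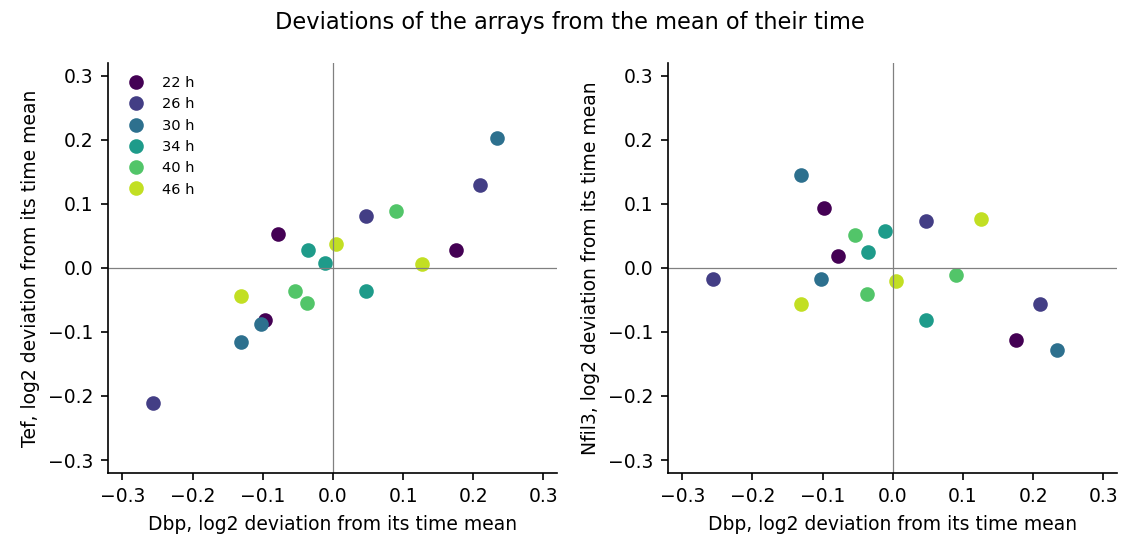
Deviation of each of the 18 arrays from the mean of its time, in log2 units, for Dbp against Tef (left) and Dbp against Nfil3 (right), coloured by time. The left panel rises from -0.26 and -0.21 to 0.23 and 0.20 (r = 0.85), and the right panel has r = -0.44, which did not pass (exact permutation adjusted p = 0.220).

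The genes most like each member over the 18 arrays were taken from the 3721 named genes that changed over the times, by Pearson correlation, as a description that shares arrays and scaling. For Dbp they were Tef at 0.97, the clock repressors Per3 at 0.93 and Per2 at 0.89, Ccdc163 at 0.88 and Thrap3 at 0.86. For Tef they were Dbp at 0.97, Per3 at 0.96, Per2 at 0.91, Mir496a at 0.87 and the clock repressor Cry2 at 0.86. Per3 had means of 8.61 ± 0.07 (SD, n = 3), 8.71 ± 0.27, 8.56 ± 0.33, 7.76 ± 0.02, 7.22 ± 0.20 and 7.81 ± 0.14 at the successive times, lowest at 40 h like Dbp and Tef.

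Running most opposite to Dbp was Arntl, which encodes BMAL1, at -0.89, followed by Ifi207 at -0.89 and Ccm2l at -0.88. For Tef the opposite genes were Ccm2l at -0.88, Alas1, the first enzyme of heme synthesis, at -0.87 and Foxe1 at -0.86. The mean of Arntl was 8.94 ± 0.13 at 22 h, then 9.64 ± 0.09 by 34 h, and 9.56 ± 0.07 on the last arrays.

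The genes most like Hlf were Pitpnm2 at 0.91, Mxra8 at 0.88, Fndc3b, Atp6v0a1 and Atat1 at 0.87, and the opposite ones Rhob at -0.89, Slc7a11 at -0.86 and Snrnp25 at -0.82. No clock gene was among them. With Spearman's rho in place of Pearson's r, 1 of the 5 alike genes of Hlf was chosen again, against 3 for Dbp, 4 for Tef and 3 for Nfil3.

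Nfil3 had weaker neighbours, with Adssl1 at 0.84, the metalloproteinase Mmp19 at 0.82, Defb10 at 0.80, Ttll1 at 0.79 and P2rx6 at 0.77. Most opposite to it was Nr1d1 at -0.84, then Actg2 and Tubb5, both at -0.66. Nr1d1 had means of 10.45 ± 0.23 (SD, n = 3), 9.33 ± 0.36, 9.15 ± 0.15, 9.08 ± 0.15, 9.71 ± 0.19 and 10.10 ± 0.18 at the successive times. Its time means correlated with those of Nfil3 at -0.99 over the 6 times, while deviations within times correlated at -0.15. Nr1d1 was picked as the most opposite gene from these same arrays, and neither correlation was tested. Nr1d1 covered 1.38 log2 where Nfil3 covered 0.33.

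**Figure D5:**
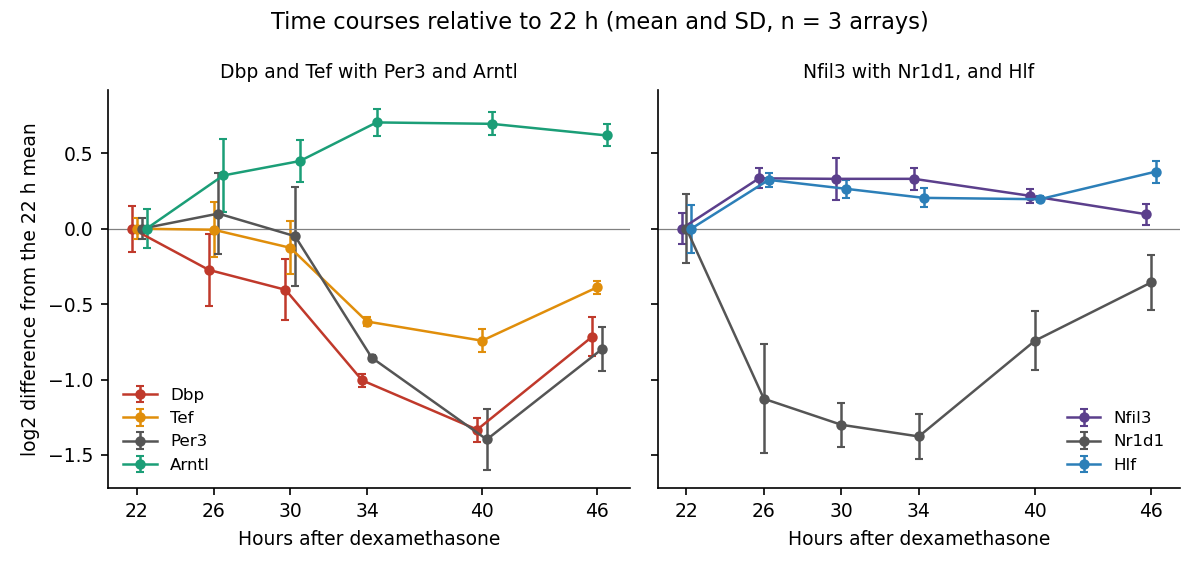
Time courses as the log2 difference from the 22 h mean, with the SD of 3 arrays, against hours after dexamethasone. Left, Dbp and Tef fall with Per3 to -1.33, -0.74 and -1.40 at 40 h while Arntl stands at 0.70; right, Nr1d1 is lowest at 34 h at -1.38 where Nfil3 stands at 0.33, and Hlf is highest at 46 h at 0.38.

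The other genes of the pathway were counted by their roles, with the F test over the times, which called 19.8% of all genes. Of the E-box activators, which drive Dbp, 1 of 2 measured passed, Arntl (adjusted p = 0.000498, limma), and both were higher at 46 h than at 22 h. Of the E-box repressors 8 of 8 passed, with a median range of 0.63 log2 where all genes had 0.19. Cry1 (adjusted p = 2.92e-07), Per3 (2.54e-06), Per2 (1.29e-05) and Cry2 (2.15e-05) led them. At 46 h, 5 of these 8 were lower and 2 higher than at 22 h, beside 9.73% and 11.5% of all genes.

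Of the receptors acting on ROR elements 3 of 4 passed, Nr1d1 (adjusted p = 2.14e-05), Nr1d2 (6.98e-05) and Rora (0.00282), with a median range of 0.84. The share of all genes called was 19.8%, with a median range of 0.19. Between 22 h and 26 h, where Nfil3 rose, Nr1d1 fell by 1.13 and Nr1d2 by 0.63 on the log2 scale (adjusted p = 0.000619 and 0.0275). Rora differed by 0.16 in that step and did not pass (adjusted p = 0.158).

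Among clock genes known to carry D-boxes, 7 of 8 passed the F test, beside 19.8% of all genes, with a median range of 0.70. Past the cosine were 5 of 8, beside 0.828% of all genes. The 8 are the 3 Per genes, Cry1, both Nr1d genes, Rora and Rorb, so they overlap the lists above and are not further support. Per3 and Per2 had fitted peaks at 26.9 h and 27.2 h, where Dbp and Tef had 25.9 h and 26.1 h, and Cry1 at 30.2 h. Nr1d2 peaked in the fit at 23.6 h and Nr1d1 at 44.2 h, which on a repeating wave of 24 h is a phase a few hours ahead of Nr1d2.

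Genes known as outputs of the PAR factors in liver, kidney or brain were mostly not called here. Of 10 measured, 2 passed the F test, Alas1 (adjusted p = 0.0164) and Pdxk, the pyridoxal kinase that makes the active form of vitamin B6 (0.0326), and 0 passed the cosine with limma, where the background was 0.828%. Their median range of 0.21 was close to the 0.19 of all genes, and the 2 of 10 that passed stand beside the 19.8% of all genes. Pdxk rose by 0.27 ± 0.06 (SE) between 22 h and 26 h (adjusted p = 0.0250), the step in which Hlf and Nfil3 rose.

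The C/EBP factors, basic leucine zipper proteins whose sites resemble the D-box, had 1 of 6 past the F test, Ddit3 (adjusted p = 0.0327). Their median range was 0.21. Both values were close to those of all genes, with 19.8% called and a median range of 0.19. Of the mitotic genes 9 of 9 passed, led by Aurka, Mki67, Ccna2 and Aurkb, with a median range of 1.41, and 0 of 9 passed the cosine. Mitotic genes fell in the steps to 26 h (8 of 9) and to 40 h (7 of 9), where 245 and 145 of 19938 genes were called lower.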

How the data were processed

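Total RNA was labelled with Affymetrix whole-transcript kits, per the labels' protocols. The authors deposited linear intensity values, 1 per probe set, and the submitters' processing notes name Affymetrix Expression Console 1.1 and PLIER 2.0, without their order or settings. The labels call the 3 samples of a time biological replicates and do not describe separate cultures, so p-values reflect the spread among these samples, which may be technical.

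Of 35556 probe sets, 21789 had 1 gene symbol, 1621 several and 12146 none here, and 21698 matched RefSeq (GRCm38.p6) by gene identifier. The probe set with the highest mean stood for each of 19938 genes. Array quartiles differed by up to 0.154 log2, so log2(intensity + 16) was quantile normalized. R 4.3.3 and limma 3.58.1 fitted the 6 time means to all 18 arrays (lmFit, eBayes), and separately a cosine and sine of 24 h. P-values were adjusted by Benjamini-Hochberg over all genes, or all rows where the 6 member differences were added, with a threshold of 0.05. The fits were also run on simulated data with independent noise on each array. Those data lacked the component that arrays share within times, so they say nothing about calls that it may cause. Deviations of arrays with the same replicate number at other times correlated at a median of -0.10, from -0.56 to 0.50. With other numbers the median was 0.07, from -0.43 to 0.45, and 3 of 18 arrays correlated best with their own number. These values showed no pairing by replicate number but cannot exclude one, and no block was used.

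The members and gene lists were chosen with earlier results of these data known. Named are all members, at most 4 genes of a list with the smallest F test p, and for each member the 5 most and 3 least correlated genes that pass the F test, without unnamed gene models and olfactory receptors. The D-box list is also named in full. List genes without a probe set among those used are not analysed here. Alternatives covered scaling, the added constant, filters, probe sets, blocks, weights, variance models, periods and arrays left out.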

Additional observations from a re-analysis of the deposited data

How the results depend on the processing

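No direction of a called member reversed under any alternative run. The F test over the times called 4 members, and 46 h against 22 h called 3, under every alternative, replicate block and each array left out included. For 34 h against both ends, Tef (-0.42) was lost with every probe set tested on its own (adjusted p = 0.0637) and with a replicate block (0.0593), leaving 1 member called in each. Nfil3 passed there with a constant of 64 (0.25), with genes above the median level (0.28) and with array weights (0.28). Leaving out single arrays gave 0 to 2 members called, with differences from -0.68 to -0.60 for Dbp, -0.44 to -0.40 for Tef and 0.25 to 0.32 for Nfil3. The cosine of Dbp was lost at periods of 20 h (amplitude 0.41) and 22 h (0.52), as was that of Tef (0.30 and 0.37), leaving 0 members called. Nfil3 passed the cosine with values as deposited (0.16), median centring (0.18), array weights (0.19) and periods of 26 h (0.15) and 28 h (0.16). Without single arrays its amplitude ran from 0.13 to 0.17 (it passed without 40 h replicate 2), and 2 to 3 members were called.

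In the main fit the F test called 3957 genes, the cosine 165, 26 h against 22 h 436 and 34 h against both ends 27. With the replicate block, which rests on numbers that showed no pairing, the totals were 3220, 32, 269 and 7 in the same order. The block also ended the calls for Tef between 30 h and 34 h (0.0576) and for Dbp minus Nfil3 in the cosine (0.0619) and between 22 h and 26 h (0.0589). Without single arrays the counts ran from 2627 (without 22 h replicate 3) to 4689 (40 h replicate 2) for the F test. The cosine gave 28 (40 h replicate 3) to 307 (40 h replicate 2), 26 h against 22 h 125 (22 h replicate 3) to 1125 (22 h replicate 2), and 34 h against both ends 2 (34 h replicate 2) to 136 (22 h replicate 2). Over the same fits 1 to 3 PAR output genes and 0 to 2 C/EBP genes passed the F test, and with array weights 4 and 5. The F test called 6595 genes in values as deposited, 6141 with median centring and 10765 with array weights. The cosine called 541, 1125 and 1140 in the same order, 1 and 5 at periods of 20 h and 22 h, 1985 and 3909 at 26 h and 28 h, and 34 with a linear term. For 34 h against both ends other settings gave 4 (only the arrays compared) to 952 (array weights), with 107 among genes above the median level. Array weights also gave 3958 for 26 h against 22 h and 8790 for 46 h against 22 h. The background shares beside the members thus rise or fall several-fold with the setting. In the step to 34 h Dbp passed under 6 settings: as deposited (0.0347), median centring (0.0323), constant of 64 (0.0325), genes above the median level (0.0350), array weights (0.0281) and variance trend (0.0300). In the step to 46 h it passed under the last 4 of these (0.0477, 0.0370, 0.0246 and 0.0331). Under each scaling the median difference of all genes was no larger than 0.0606 log2 in size in any comparison. For 46 h against 22 h it was 0.0294 after quantile normalization, 0.0606 as deposited and -0.0057 with median centring. The cause of these shifts was not tested.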

Other observations

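Nr1d1 and the pair of Dbp and Tef behaved differently between times and within them. Over the 6 time means Nr1d1 correlated at 0.30 with Dbp and at 0.20 with Tef, while deviations of the 18 arrays from their time means correlated at 0.84 and 0.71. With Nfil3 the order was turned, at -0.99 over the time means and -0.15 within times. Per3 followed Dbp and Tef both between times (0.95 and 0.97) and within them (0.72 and 0.85). Replicate 3 of 30 h, high for Dbp by 0.23 and Tef by 0.20, was high for Per3 by 0.38, and replicate 2 of 26 h was low by 0.26, 0.21 and 0.31. These pairs were looked at after their values were seen and have no test.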
